A study of Mus musculus with 4 samples.

Results

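Small noncoding RNA genes make the microRNAs, spliceosomal RNAs, nucleolar RNAs and other short transcripts of the cell, and the open chromatin found at their starts in mouse embryonic stem cells (ESCs) was examined here. Peaks of 4 ATAC-seq libraries were merged into union regions wherever they shared at least 1 base, and a union region on an autosome was kept when it lay within 1 kb of the start of a GENCODE vM21 gene of type miRNA, snRNA, snoRNA, scaRNA, misc_RNA or rRNA. This gave 557 regions of 50704 on the autosomes (1.099%) and of 52714 in the whole series. A protein_coding transcript start also lay within 1 kb of 253 of the 557 regions, and 304 had no such coding start. The choice used only position, so how often a region was found and its sequence were not used to choose it.

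The libraries came from E14 mouse ESCs grown in serum + LIF that received a short hairpin RNA from the lentiviral vector pLKO, with fresh medium after 8 hours, then puromycin (2 μg/ml, kept for 2 days), and were harvested after another 2 days. There was 1 library with a hairpin against GFP (shGFP) and there were 3 with a hairpin against luciferase (shLuc replicates 1 to 3), neither of which is a mouse gene, so all 4 are controls of a study of epigenetic regulators in ESCs. Where several widths are given for a locus without names, they are in the order shGFP, shLuc replicate 1, 2 and 3, and 0 means no peak. In ATAC-seq a transposase cuts open DNA, and a peak is an interval where the cuts pile up. With 1 shGFP library an exact permutation test cannot give a two-sided p below 0.25, and the hairpin and the library cannot be told apart.

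The deposited lists held 17269 to 40290 autosomal peaks, with shLuc replicate 1 the shortest, and gave no height, score or read count, so the depth is unknown and a width is the only size a peak has. Of 6 pluripotency genes looked up as a check of the cells, Zfp42 had a peak within 1 kb of a coding transcript start in 4 libraries, Klf4 and Esrrb each had one in 2, and Pou5f1, Nanog and Sox2 had none listed in any. It is not known whether the lists used here are complete, so a gene said to have no region is one with no peak listed within 1 kb.

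MicroRNAs are cut from hairpins in longer RNA polymerase II transcripts, so the hairpin can lie far from the promoter that drives it, or inside an intron of a coding gene. The spliceosomal snRNAs U1, U2, U4 and U5 and the nucleolar RNA U3 are transcribed by RNA polymerase II, and U6 and 7SK by RNA polymerase III, from compact promoters of their own with a distal element that often holds an octamer bound by OCT1, a proximal element close to the start and, for polymerase III, a TATA box. Most box C/D and H/ACA snoRNAs are instead cut from introns of host genes. Each of the spliceosomal RNAs has many copies in the mouse genome, and most annotated copies of U6 are pseudogenes.

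The microRNAs best known from ESCs belong to a few seed families, so their mature sequences are shown with the seed (bases 2 to 8) in capitals. All 25 genes of the 5 ESC clusters looked up and 16 of the 30 microRNA genes found in all 4 libraries without a coding start had a mature sequence in RefSeq (build GRCm38.p6). The first 5 sequences share a seed across the miR-290 and miR-302 clusters, miR-302c-3p has it moved by 1 base, the next 4 share a seed across the miR-17 and miR-106b clusters, and the last 3 share a seed across 3 clusters.
miR-291a-3p: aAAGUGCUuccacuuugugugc
miR-294-3p: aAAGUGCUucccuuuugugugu
miR-295-3p: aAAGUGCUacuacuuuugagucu
miR-302b-3p: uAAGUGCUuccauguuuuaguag
miR-302d-3p: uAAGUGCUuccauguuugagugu
miR-302c-3p: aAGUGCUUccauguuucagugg
miR-17-5p: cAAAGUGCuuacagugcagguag
miR-20a-5p: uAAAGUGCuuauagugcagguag
miR-106b-5p: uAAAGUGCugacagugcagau
miR-93-5p: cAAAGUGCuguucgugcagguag
miR-367-3p: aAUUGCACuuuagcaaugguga
miR-92a-3p: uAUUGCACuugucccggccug
miR-25-3p: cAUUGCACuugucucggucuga

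Of the microRNAs whose locus was found in all 4 libraries without a coding start, 6 with well-known mature forms are shown in the same way, and no 2 of them share a seed with each other or with the sequences above.
miR-9-5p: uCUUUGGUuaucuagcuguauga
miR-148a-3p: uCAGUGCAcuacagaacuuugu
miR-22-3p: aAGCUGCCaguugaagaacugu
miR-7b-5p: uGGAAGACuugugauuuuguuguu
miR-210-3p: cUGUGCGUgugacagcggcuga
miR-760-3p: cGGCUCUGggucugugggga

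Open small nuclear and nucleolar RNA genes are shown by the bases before their starts, read from GRCm38.p6 on the strand of the gene, with 3 words in capitals: the octamer (ATGCAAAT, searched on both strands), the word ACCNT on the strand of the gene 70 to 41 bases before the start, where the proximal element lies, and TATA, which reads the same on both strands, 40 to 17 bases before the start. The U2 gene Rnu2-10 (chr11:101657988-101658287, plus strand) is given from 250 bases before the start to 50 bases into the gene. The U1 gene Gm24830 (chr3:96328325-96328444, plus strand), the U3 gene Rnu3b1 (chr11:87443137-87443256, plus strand) and the 7SK gene Rn7sk (chr9:78175614-78175733, minus strand) are given from 100 bases before the start to 20 bases into the gene.
Rnu2-10: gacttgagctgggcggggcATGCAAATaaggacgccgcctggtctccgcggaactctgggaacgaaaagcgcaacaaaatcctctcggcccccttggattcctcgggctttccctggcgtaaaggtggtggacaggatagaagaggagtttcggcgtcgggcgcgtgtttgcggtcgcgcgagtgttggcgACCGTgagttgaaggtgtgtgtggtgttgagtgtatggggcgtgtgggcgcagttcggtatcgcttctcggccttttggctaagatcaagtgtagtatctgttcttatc
Gm24830: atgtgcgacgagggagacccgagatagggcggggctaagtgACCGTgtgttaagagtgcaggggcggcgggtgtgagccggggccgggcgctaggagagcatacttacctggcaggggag
Rnu3b1: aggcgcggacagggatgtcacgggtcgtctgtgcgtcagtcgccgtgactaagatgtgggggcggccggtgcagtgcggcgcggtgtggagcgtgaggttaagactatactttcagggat
Rn7sk: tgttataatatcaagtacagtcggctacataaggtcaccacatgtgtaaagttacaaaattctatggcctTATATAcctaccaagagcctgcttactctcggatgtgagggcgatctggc

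In these windows the octamer began 231 bases before the start of Rnu2-10. The word ACCNT began 59 bases before the starts of Rnu2-10 and Gm24830, and was not in the printed window of Rnu3b1 or Rn7sk at that distance. TATA began, as overlapping copies, 30 and 28 bases before Rn7sk.

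Of the 557 regions, 221 (39.7%) were found in all 4 libraries, against 27.3% of all autosomal regions. The coding start separated them: 69 of the 304 regions without one were found in all 4 (22.7%, Wilson 95% interval 18.3 to 27.7%) and 152 of the 253 with one (60.1%, 53.9 to 65.9%). Over all autosomal regions the same shares were 15.2% without and 61.4% with a coding start. Regions at small RNA genes with a coding start were thus found about as often as coding promoters in general, and the intervals cover counting error only. Without shLuc replicate 1, the shares found in the other 3 libraries were 47.8% of 293 and 74.6% of 252, against 40.5% and 77.9% of all autosomal regions.

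Among the regions without a coding start, 83 were found in 1 library, 70 in 2 and 82 in 3. Those with a coding start were in 1, 2 and 3 libraries 26, 27 and 48 times. The library that most often lacked a region was shLuc replicate 1: 108 of the 557 regions were missing from it alone (19.4%, against 22.1% of all autosomal regions), and of those without a coding start 72 of 304 (23.7%, against 24.4%). 1 region was missing from shGFP alone.

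**Figure D1:**
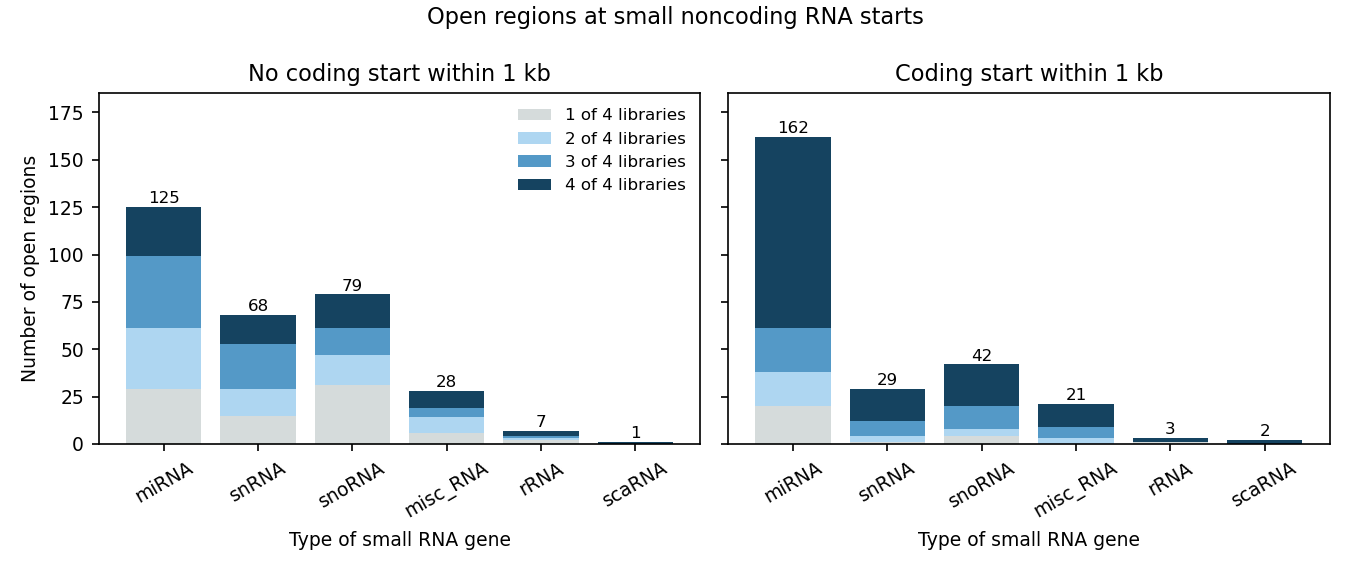
Number of open regions (y axis) at each type of small RNA gene (x axis), without (left) and with (right) a coding start within 1 kb, shaded by the number of libraries with a peak. The dark part, found in all 4 libraries, made up 26 of 125 regions at microRNA genes without a coding start and 101 of 162 with one.

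By gene type, 287 regions lay at microRNA genes, 121 at snoRNA genes, 97 at snRNA genes, 49 at misc_RNA genes, 10 at rRNA genes and 3 at scaRNA genes, and a region near genes of several types counts under each. The regions at microRNA genes without a coding start were found in all 4 libraries in 26 of 125 cases (20.8%), those at snRNA genes in 15 of 68 (22.1%) and those at snoRNA genes in 18 of 79 (22.8%). With a coding start the counts were 101 of 162 (62.3%), 17 of 29 (58.6%) and 22 of 42 (52.4%). The split by coding start was therefore present in each of the 3 larger types, and the 3 types lay close together within each side of it. Other regions without a coding start were missing from shLuc replicate 1 alone. These were 29 at microRNA genes (23.2%), 23 at snRNA genes (33.8%) and 14 at snoRNA genes (17.7%). The share over all autosomal regions without a coding start was 24.4%.

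Counted by gene, 662 of 5682 autosomal small RNA genes (11.7%) had a region within 1 kb of their start and 297 (5.23%) had one found in all 4 libraries. The same counts were 61.0% and 40.5% for coding genes and 19.9% and 7.53% for lincRNA genes. Of the 362 small RNA genes with a coding start within 1 kb of their own start, 61.9% had a region, and of the 5320 without one, 8.23%. Thus most annotated small RNA genes had no open region in any library, and those beside a coding start were at the level of coding genes.

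The regions with and without a coding start had different median base composition. Regions without a coding start had a median GC content of 52.1% and a median CpG ratio (observed over expected CpG) of 0.302, against 61.6% and 0.785 with a coding start, and all autosomal regions without and with one had CpG ratios of 0.25 and 0.716. Within the regions without a coding start the median CpG ratio was 0.218 in those found in 1 library, 0.256 in 2, 0.336 in 3 and 0.594 in 4. Their median width as union regions went from 413 to 974 bp. All autosomal regions without a coding start that were found in all 4 had a CpG ratio of 0.472 and a width of 932 bp. The median width of all autosomal regions without a coding start was 573 bp. Merging peaks of more lists can only widen a region, so the rise in width follows in part from the merging. A start of a long noncoding RNA lay within 1 kb of 37 of the 304 regions without a coding start and of 16 of the 69 found in all 4 libraries. The same shares over all autosomal regions were not computed.

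**Figure D2:**
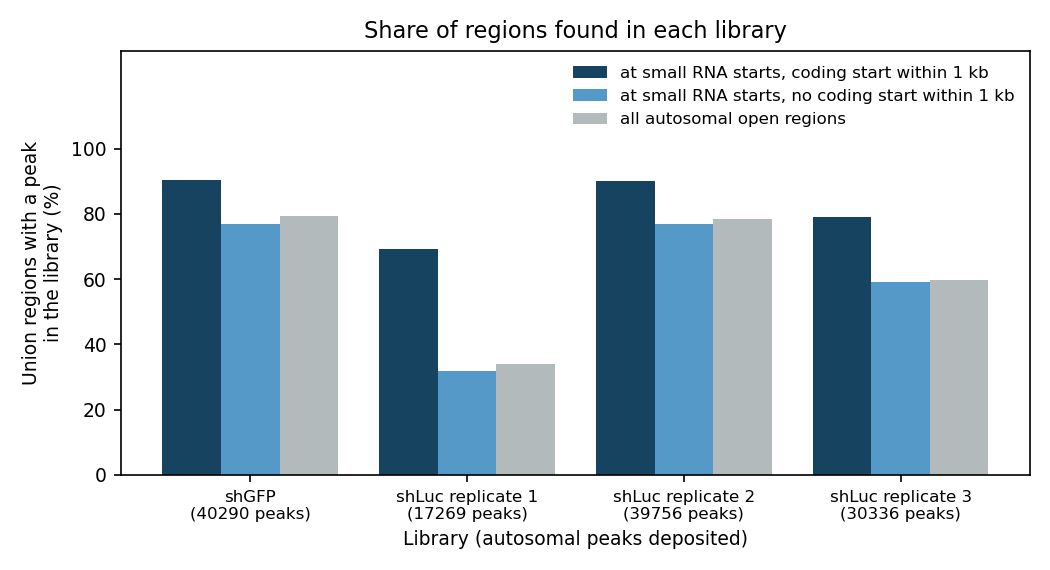
Share of union regions (y axis, percent) with a peak in each library (x axis, with its number of autosomal peaks), for small RNA regions with (dark) and without (mid blue) a coding start and for all autosomal regions (grey). In shLuc replicate 1 the shares were 69.2%, 31.9% and 34.0%.

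shGFP held 463 of the 557 regions (83.1%), and shLuc replicates 1 to 3 held 272 (48.8%), 462 (82.9%) and 380 (68.2%). The order followed the length of the peak lists. Of all autosomal regions they held 79.3%, 34.0%, 78.3% and 59.7%. Peaks at small RNA starts were 1.12% of the autosomal peaks of shGFP and 1.54, 1.12 and 1.2% of those of shLuc replicates 1 to 3 (mean 1.29 ± 0.223%, SD, n = 3), a difference of -0.167 percentage points that was smaller than the spread between the shLuc libraries. Without a coding start the shares were 0.566% in shGFP and 0.585, 0.573 and 0.574% in shLuc (0.577 ± 0.00666%). The shGFP value lay below all 3 and below their mean by more than 1 SD. These shares rest on 228 peaks in shGFP and 101, 228 and 174 in shLuc. The difference of -0.0113 percentage points is well within the counting error of such counts, so it sets shGFP apart from none of them. The difference between shGFP and shLuc was not tested.

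The miR-302 cluster, which makes 5 ESC microRNAs, miR-367 among them, from within Larp7 on the opposite strand, had its region on chr3:127544644-127545479 over the starts of Mir302b and Mir302c. The peak was 836 bp wide in shGFP, absent in shLuc replicate 1, 710 bp in replicate 2 and 488 bp in replicate 3. All 5 genes of the cluster lay within 1 kb of it, at 0 to 254 bp. No coding start was within 1 kb.

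The miR-290 cluster had no region within 1 kb of any of its 9 genes. Its miR-291a-3p, miR-294-3p and miR-295-3p share the seed of miR-302b-3p and miR-302d-3p. The nearest region, chr7:3211749-3212518, lay 6108 bp from Mir290a and was a 770 bp peak in shLuc replicate 2 alone. Of the 2 clusters with a common seed, then, 1 had a listed peak within 1 kb of its hairpins, in 3 of the 4 libraries.

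The miR-17 cluster, a proliferation-linked cluster inside Mir17hg, had a wide region on chr14:115040137-115042789 at the start of that host transcript, 882 bp from Mir17. Its peaks were 2554, 0, 2426 and 2467 bp wide in shGFP and shLuc replicates 1 to 3. The other 5 hairpins of the cluster lay 1062 to 1638 bp from it, beyond the 1 kb window, so only Mir17 counts as a gene with a region.

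The miR-106b and miR-15b clusters lie in introns of coding genes. The nearest region to Mir106b, at the Mcm7 and Ap4m1 starts, was 5191 bp away and had peaks of 1514, 362, 1450 and 1399 bp. The nearest to Mir15b, at the Smc4 and Ift80 starts, was 3596 bp away and had peaks of 1991, 1649, 1596 and 1854 bp. Both were found in all 4 libraries but at the starts of the host genes.

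Of the 25 ESC cluster genes, then, 6 had a region within 1 kb and none had one found in all 4 libraries. Over all microRNA genes these shares were 14.8% and 6.48%, and none of 25 is near the latter. The 6 genes lay at the regions of the miR-302 and miR-17 clusters, both missing from shLuc replicate 1 alone. None of 9 genes of an epithelial and pluripotency-linked list had a region within 1 kb, although Mir21a had one at 2228 bp with peaks of 1087, 568, 1086 and 1043 bp. The nearest region to Mir182, Mir183 and Mir96 was a 2306 bp peak in shGFP alone.

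A total of 30 microRNA genes in 26 regions were found in all 4 libraries without a coding start. Of these, 17 carry a Mir name and 18 had their own start inside the region. The peak width averaged over the 4 libraries ranged from 360 bp (Mir187) to 1580 bp (Gm27844), and 6 of the 30 lay in regions where at least 50% of the words of 50 bases recur elsewhere in the genome.

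Mir9-1 makes miR-9, a microRNA of neural progenitors, from the long noncoding Gm3764 (chr3:88215598-88215686, plus strand). Its region, chr3:88214971-88216149, covered the hairpin and also the starts of Mir3093 and Gm25641, with peaks of 1157 bp in shGFP and 926, 925 and 969 bp in shLuc (940 ± 25.1 bp, SD, n = 3). The shGFP peak was the widest and the nearest coding start, of Rhbg, lay 39111 bp from Mir9-1. The other miR-9 genes were found less often: Mir9-2 had an 829 bp peak in shLuc replicate 2 alone, and Mir9-3 had peaks of 666 bp in shGFP and 623 bp in shLuc replicate 3.

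Mir760 lies in the long noncoding Gm17494 (chr3:122293585-122293703, minus strand). It was covered by peaks of 1664 bp in shGFP and 842, 1698 and 1444 bp in shLuc, and the region had a CpG ratio of 0.957. Mir148a (chr6:51269812-51269910, minus strand) is intergenic in this annotation, 516 bp from a region with peaks of 973, 978, 1231 and 1019 bp. Here the library with the fewest peaks had a peak as wide as that of shGFP.

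Mir22 (chr11:75463716-75463810, plus strand) lay 921 bp from a region at the start of its host transcript Mir22hg. The peaks were 1605 bp in shGFP and 1263, 777 and 975 bp in shLuc. Mir7b (chr17:56242988-56243098, plus strand) lay 521 bp from peaks of 889, 930, 1093 and 1057 bp. Mir210, the hypoxia-induced microRNA (chr7:141221384-141221493, minus strand), had peaks of 943, 786, 927 and 729 bp across its start, with the nearest coding start, of Rassf7, 4793 bp away.

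Mir8120 (1069, 510, 1005 and 984 bp) and Mir1983 (883, 549, 757 and 644 bp) had no host gene and a peak over the start in each library. Mir692-2 in Grik3 (647, 352, 704 and 697 bp), Mir1191b in Nfic (743, 644, 653 and 416 bp) and Mir8090 in Cfap43 (728, 347, 625 and 393 bp) lay in coding genes away from the starts. In Mir692-2 and Mir8120 shLuc replicate 1 had the narrowest peak, and in Mir1191b shLuc replicate 3 did. Mir187 on chromosome 18 had peaks of 510, 333, 270 and 327 bp, the narrowest of the 30 on average.

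Mir7029 in Gcn1l1 (479, 587, 412 and 399 bp), Mir1668 in Adgre5 (493, 353, 273 and 388 bp) and Mir3065 opposite Aatk (577, 371, 511 and 434 bp) lay 573, 692 and 977 bp from their regions. Gm24270 in Peak1 had peaks of 386, 384, 380 and 381 bp. Its widths were nearly equal in the 4 libraries, in a region with 75.07% repeated words and 1.55% soft-masked bases.

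The remaining loci have no name beyond a gene model number. Gm24098 (667, 692, 476 and 696 bp) and Gm27852 (826, 397, 703 and 526 bp) had a peak over the start and no host gene. Gm24245 and Gm25732 shared a region with peaks of 579, 323, 801 and 548 bp, Gm27857 opposite Elf1 had 534, 489, 555 and 543 bp, and Gm23062 in Hlcs had 439, 437, 494 and 355 bp. None of these was wider on average than Mir9-1.

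A few of the loci typed as miRNA lay on sequence that the annotation also gives to another RNA or that recurs in the genome. Gm47299 and Gm47305 shared the region of Rn7s2, a gene of the 7SL RNA of the signal recognition particle, with peaks of 737, 585, 637 and 778 bp. Mir8117, Gm27437, Gm44341 and Mir692-2 lay in regions with 57.17%, 68.54%, 61.48% and 90.69% repeated words, and Mir6546 and Gm27844 on chromosome 1 in regions with 87.23% and 97.24%. Gm27844 had peaks of 1784, 925, 1862 and 1758 bp and Gm44341 of 888, 252, 641 and 820 bp. Reads with equal best placements were assigned at random by the authors, so a peak in such a region cannot be given to 1 copy.

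**Figure D3:**
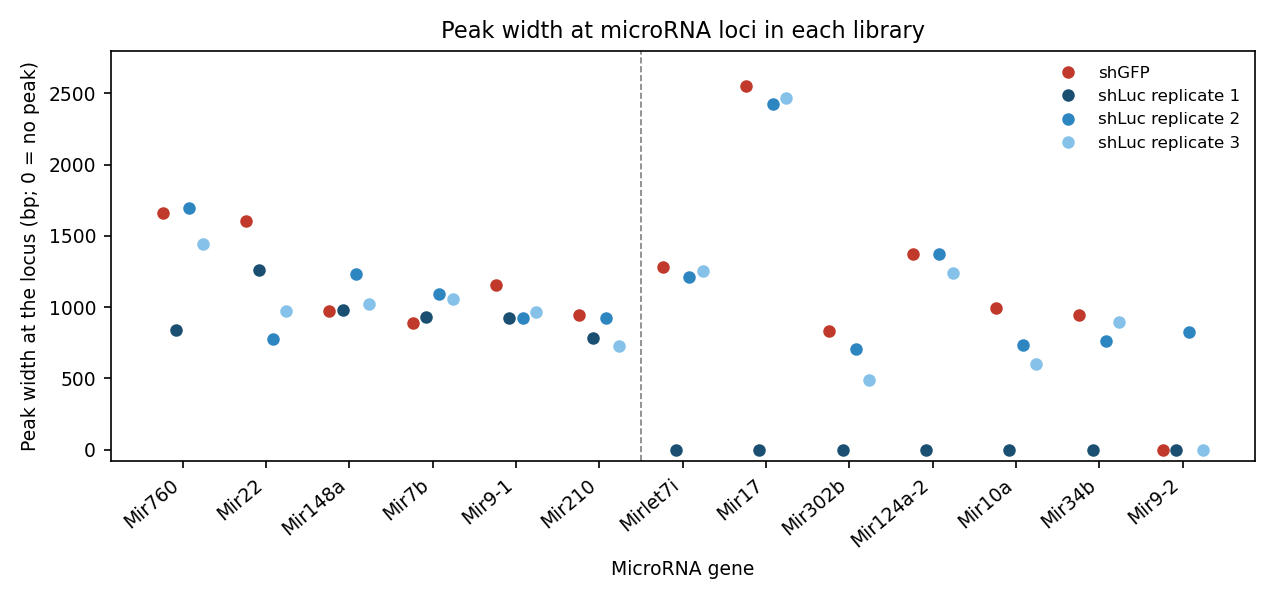
Width of the peak (y axis, bp, 0 for no peak) at 13 microRNA genes (x axis) in each library (colour). The 6 loci left of the dashed line had a peak in all 4 libraries, and the 7 to its right, from Mirlet7i to Mir9-2, lacked one in shLuc replicate 1.

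The 103 microRNA genes found in all 4 libraries with a coding start lay in 101 regions, and 85 of them had their own start inside the region. Their median CpG ratio was 0.803, against 0.518 for the 30 without a coding start. The 10 with the largest mean width lay at the starts of Cables1 (Mir1901), Fcgr3 (Mir6546), H1fx (Gm47286), Eif4e (Mir1956), Hist2h2aa2 and Hist2h3c2 (Gm47311), Zfp777 (Gm24563), Ddhd1 (Mir5131), Smarcc2 (Mir8105), Pknox1 (Gm24970) and the Hist2h2ac cluster (Gm44492). Mir1956 began 4 bp and Mir5131 8 bp from the coding start, so the region of either is also that coding promoter.

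Mir1956 had peaks of 1450, 1537, 1930 and 1694 bp and Mir5131 of 1643, 1099, 1627 and 1493 bp. Gm44492, beside the histone genes, had the most uneven set, with 2004 bp in shGFP and 328, 2338 and 1141 bp in shLuc. The mean widths of the 10 loci went from 1452.8 to 1697.2 bp, where the widest of the loci without a coding start, Gm27844, had 1582.2 bp.

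A lineage list of 25 genes holds the host transcript Mir124-2hg beside the hairpins, of which Mir223 lies on chromosome X. Of these, 9 had a region and 1, Mir9-1, had it in all 4 libraries, against 14.8% and 6.48% of all microRNA genes. Mir124a-2, of neurons, lay 662 bp from peaks of 1371 bp in shGFP and 0, 1371 and 1239 bp in shLuc. The p53 target genes Mir34b and Mir34c lay at 0 and 250 bp from peaks of 948, 0, 764 and 897 bp. Mir10a, in the Hoxb cluster, lay 821 bp from peaks of 994, 0, 735 and 602 bp beside Hoxb4.

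Each of these last 3 loci was missing from shLuc replicate 1 alone, the most frequent pattern of the regions in 3 libraries. Of the 11 let-7 genes, whose products mark the exit from pluripotency, Mirlet7i had peaks of 1285, 0, 1214 and 1252 bp over its start and Mirlet7g a 737 bp peak in shGFP alone. The other 9 had no region within 1 kb, and 1 of them, Mirlet7f-2, lies on chromosome X, outside the autosomes used here. Thus 2 of the 11 had a region and 0 had one found in all 4 libraries. The shares over all autosomal microRNA genes were 14.8% and 6.48%.

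In the imprinted cluster between Meg3 and Mirg on chromosome 12, 4 of 66 microRNA genes (Mir434, Mir432, Mir136 and Mir3071) shared 1 region, chr12:109594647-109595362, with peaks of 679, 0, 516 and 471 bp and 43.63% repeated words. None of the 119 microRNA genes inside Sfmbt2 on chromosome 2 had a region within 1 kb, and the nearest was 35606 bp away. Large arrays of microRNA genes thus added few regions.

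Among microRNA genes with a RefSeq entry, 166 of 940 (17.7%) had a region and 71 (7.55%) had one in all 4 libraries. Among those with no entry, 139 of 1114 (12.5%) and 62 (5.57%) did. By position, 132 of the 921 microRNA genes inside a coding gene on the same strand had a region (14.3%), against 90 of the 671 in no other gene (13.4%). The 268 on the other strand of a coding gene had one in 21.3%. A region found in all 4 libraries lay at 7.17%, 5.51% and 7.09% of these groups, in the same order.

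The spliceosomal RNA genes had regions in very different shares. A region lay within 1 kb of 7 of 11 U5 genes (63.6%), 10 of 25 U2 genes, 2 of 11 U4 genes, 13 of 115 U1 genes (11.3%), 37 of 655 U6 genes (5.65%) and 1 of 43 U7 genes, the gene Rnu7. U7 makes the RNA that trims histone messages. The Rnu7 region was an 879 bp peak in shLuc replicate 2 alone, with a Grcc10 coding start within 1 kb. The 2 U4 genes shared 1 region. Of all 1292 snRNA genes 7.59% had a region and 2.48% had one found in all 4 libraries. The U1 and U6 shares lay closer to the former than the U5 share. The genes of 1 family are near-copies of each other, so they are not independent of each other.

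The U2 genes with a region were all found in 3 or 4 libraries. Of the 98 snRNA genes with a region, 34 were found in 3 libraries and 32 in all 4. Rnu2-10 (chr11:101658238-101658428, plus strand) had peaks of 1331 bp in shGFP and 489, 1275 and 1269 bp in shLuc, and Gm24950 near it on chromosome 11 had 1166, 806, 1038 and 1009 bp. Gm26316 had 979, 781, 867 and 721 bp and Gm25939 on chromosome 1 had 1294, 594, 889 and 749 bp. In these 4 genes the narrowest peak was in shLuc replicate 1 for 3 of them and in shLuc replicate 3 for Gm26316.

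The octamer was in the 250 bases before to 50 bases after the start of all 10 U2 genes with a region and of 1 of the 15 without one. It began 222 to 231 bases before the start. ACCNT was in 3 of the 10 U2 genes with a region and in 3 of the 15 without. In the same window the octamer was in 2.34% of all 5682 small RNA genes, in 1.41% of microRNA genes and in 1.74% of 32851 RefSeq promoters. The open U2 copies were therefore nearly the same genes as the copies with the octamer, which Rnu2-10 shows in the sequences above.

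The U5 genes with a region were also all found in 3 or 4 libraries. Rnu5g (chr9:65201726-65201841, minus strand) had peaks of 798, 694, 712 and 700 bp (702 ± 9.2 bp over the shLuc libraries). The octamer was in 4 of the 7 U5 genes with a region and in 0 of the 4 without, and ACCNT was in 6 of 7 and 0 of 4. Rnu12, which makes the U12 RNA of the minor spliceosome, lay 260 bp from a Poldip3 start and had peaks of 1154, 949, 1195 and 1034 bp.

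Of the 655 U6 genes, 4 held all 3 words (the octamer, ACCNT and TATA), and all 4 had a region. Gm24019, beside Med16, had peaks of 1126, 943, 1234 and 1378 bp. Gm24859 and Gm23296 shared a region on chr12:52602675-52604972 with peaks of 2230, 0, 2221 and 1417 bp, and Gm25064 had peaks of 1175 and 343 bp in shGFP and shLuc replicate 2 and none in the other 2 libraries. Of the remaining 651 U6 genes 33 had a region (5.07%), and 13 of these 33 had a coding start within 1 kb of the region.

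Among the U1 genes ACCNT was in 12 of the 13 with a region and in 10 of the 102 without, while the octamer was in 1 of 13 and 2 of 102. Gm24830 (chr3:96328425-96328590, plus strand) had peaks of 1198, 993, 1123 and 1224 bp, with 33.28% repeated words. For U1 as a family repeated words were a limit: 9 of the 13 regions had at least 50%, with a median of 95.67%. Rnu1b1 (678, 0, 643 and 593 bp) and Rnu1b2 (647, 0, 619 and 667 bp) consisted of repeated words throughout, so a peak there cannot be given to 1 of the copies. The U2 regions had a median of 13.025%, and 1 of 10 reached 50%.

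**Figure D4:**
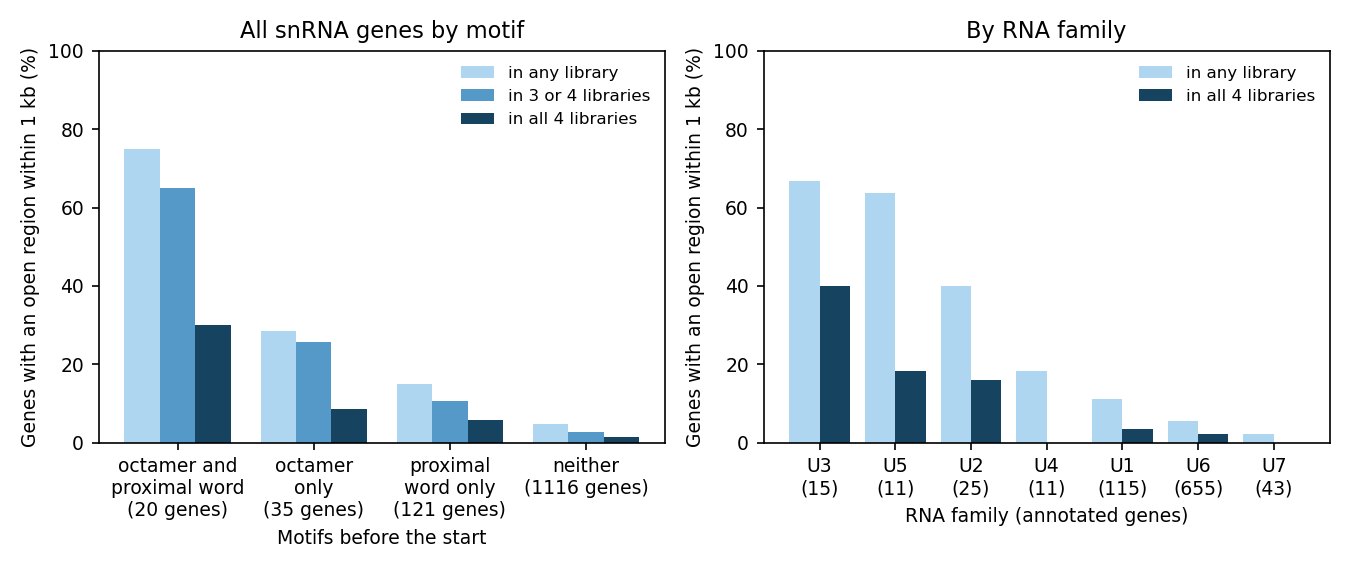
Share of genes with an open region within 1 kb of the start (y axis, percent). Left, all snRNA genes grouped by the words before their start (the proximal word being ACCNT), in any library, in 3 or 4, and in all 4. Right, genes by RNA family, U3 being a nucleolar RNA, in any library and in all 4. Of the genes with the octamer and the proximal word 75.0% had a region and of those with neither 4.93%.

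Over all 1292 snRNA genes, 15 of the 20 with the octamer and ACCNT had a region (75.0%), 10 of 35 with the octamer only (28.6%), 18 of 121 with ACCNT only (14.9%) and 55 of 1116 with neither (4.93%). The octamer was in 28.1% of the 32 snRNA genes found in all 4 libraries, in 38.2% of the 34 found in 3, in 5.88% of the 17 found in 2, in 13.3% of the 15 found in 1 and in 2.51% of the 1194 with no region. The share did not run in the order of the number of libraries. Of microRNA genes it was in 0.752% of 133 found in all 4 and in 1.49% of 1749 with no region. ACCNT was in 8.25% of all small RNA genes on the strand of the gene and in 17.8% on either strand, and TATA alone was in 11.2% of snRNA genes with a region and 10.6% of those without. The words and windows were chosen with the sequences of the open genes in view and the genes are copies of each other, so the shares are descriptions and carry no test.

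Of the other snRNA genes, Gm22710, inside the long noncoding 2900060B14Rik, had peaks of 1111, 873, 1332 and 1053 bp. Gm22063, typed U6 and 737 bp from the Cbfb promoter region, had 1414, 1219, 1484 and 1250 bp. The single gene named Rnu6 had no region nearer than 40422 bp, Rnu11 none nearer than 3857 bp and Rnu1a1 none nearer than 3895 bp.

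Several other RNA polymerase III genes were looked up by name. Rn7sk, whose RNA holds the elongation factor P-TEFb inactive (chr9:78175303-78175633, minus strand), had peaks of 1055, 782, 853 and 1432 bp. Rny1, a gene of the Ro-bound Y RNAs, had 494, 0, 536 and 521 bp, and Rny3 had no region within 1 kb, the nearest being 2940 bp away. The vault RNA gene Vaultrc5 had peaks of 487, 280, 666 and 467 bp, narrower than Rn7sk in every library.

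Of 53 genes of the 5S rRNA family, 42 had a region (79.2%), found in all 4 libraries for each. The region chr8:123538459-123623955 was 85497 bp long, held 51 of the 60 rRNA genes with a region and consisted of 2, 8, 6 and 2 peaks that together covered 84745, 68931, 78385 and 83295 bp. It had 96.78% repeated words, as 5S genes stand in a tandem array, so it counts as 1 region and says nothing of single copies. The next named rRNA locus was Gm24009 at the Srpk2 start, with peaks of 1967, 1514, 1697 and 1677 bp.

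U3, the RNA that guides early cuts in the rRNA precursor, had a region at 10 of 15 annotated entries (66.7%), all found in 3 or 4 libraries. Several of these are pairs of IDs for 1 gene, and the 10 lay in 5 regions. Of the 139 snoRNA genes with a region, 31 were found in 3 libraries and 49 in all 4. Rnu3b1 (chr11:87443237-87443452, plus strand) had peaks of 1047, 827, 1017 and 873 bp with 51.59% repeated words, Rnu3b2 had 1143, 873, 790 and 1173 bp with 67.17%, and Rnu3a had 1439, 0, 1425 and 513 bp with 0.07%. The octamer was in none of the 10.

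Snord118, the U8 RNA gene with the octamer, had peaks of 647 and 769 bp in shGFP and shLuc replicate 2 only. Of the large repeated snoRNA families, SNORA17 had a region at 34 of 425 genes (8.0%), SNORD116 at 4 of 67 and SNORD115 at 2 of 131, and SNORA17 was found in all 4 libraries at 5 genes. Of all snoRNA genes 9.64% had a region and 3.4% had one found in all 4 libraries. Of those without a coding start the shares were 7.38% and 2.34%. The share of SNORA17 genes with a region was thus near that of snoRNA genes in general.

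For snoRNAs in introns of long noncoding hosts, a region often lay at the host start. A coding start also lay within 1 kb of the regions of Gas5 (Zbtb37), Snhg1 (Slc3a2) and Zfas1 (Znfx1). Gas5 had peaks of 1150, 704, 1139 and 1172 bp over its start, and 3 of its 10 snoRNAs lay within 1 kb of it. Snhg1 had 599, 501, 723 and 462 bp with 3 of 8 snoRNAs within 1 kb, and Snhg8 had 1169, 744, 1180 and 1152 bp at 28 bp from Snora24.

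Snhg5 (759, 657, 554 and 671 bp), Snhg6 (677, 638, 655 and 672 bp) and Zfas1 (725, 636, 819 and 747 bp) were also found in all 4 libraries. Snhg12 had a 505 bp peak in shGFP alone, and Snhg3 had no region nearer than 7859 bp. Of the 10 host genes looked up, 8 had a region within 1 kb and 6 had it in all 4 libraries. The shares were 19.9% and 7.53% for lincRNA genes and 61.0% and 40.5% for coding genes. Gas5, Snhg1 and Zfas1, which have a coding start beside their region, are among the 6. Snord104, with no host in this annotation, had peaks of 799, 778, 1259 and 993 bp together with Gm22711.

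The scaRNAs guide modification of the spliceosomal RNAs in Cajal bodies, and 4 of 46 genes had a region, each in all 4 libraries. Scarna2 (chr3:108554338-108554751, minus strand) had peaks of 1025, 561, 941 and 852 bp with no coding start within 1 kb of the region. Scarna13, in Snhg10 beside Glrx5, had 1029, 616, 937 and 599 bp, and Scarna17 and Gm23119 shared a region of 1328, 1002, 1094 and 1049 bp beside Acaa2.

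Among the misc_RNA genes, Gm27972 at the Dleu2 start had peaks of 1544, 1180, 1239 and 1095 bp and Gm28030 and Gm27286 shared peaks of 1131, 901, 1051 and 850 bp over the long noncoding 5430416N02Rik. The Smad5 start carried 3 annotated misc_RNA genes with peaks of 1283, 685, 1217 and 1286 bp. The misc_RNA regions without a coding start were found in all 4 libraries in 9 of 28 cases (32.1%, interval 17.9 to 50.7%).

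**Figure D5:**
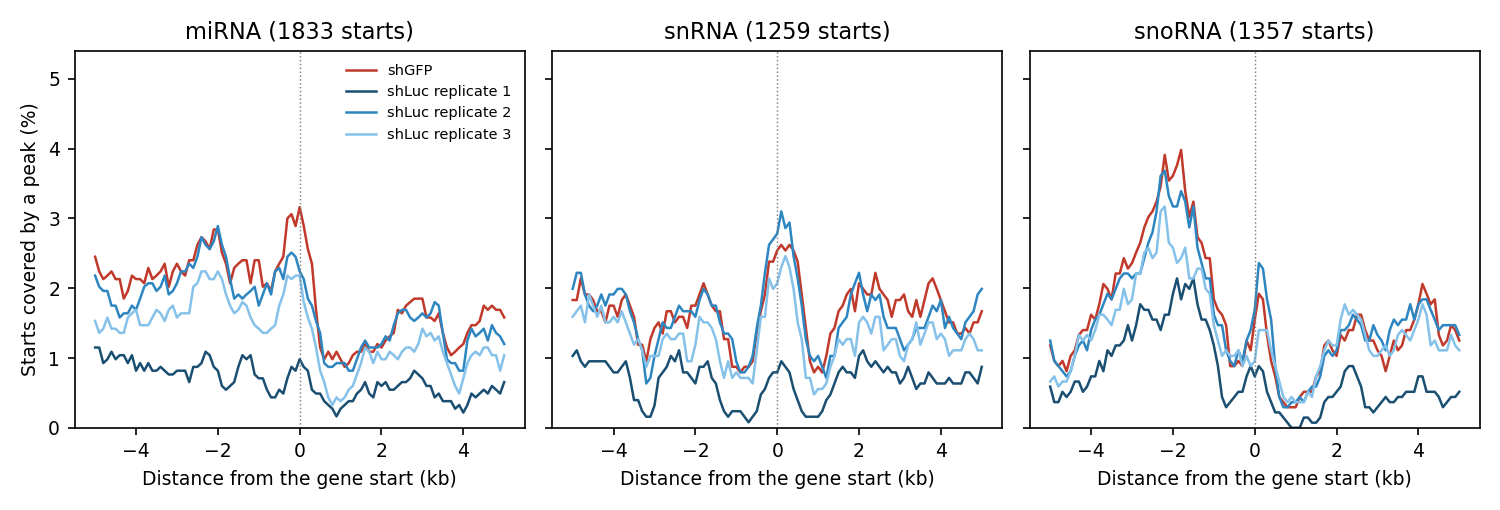
Share of gene starts covered by a peak (y axis, percent) against the distance from the start (x axis, kb, upstream to the left) for microRNA, snRNA and snoRNA genes without a coding start within 1 kb, 1 line per library. In shLuc replicate 2 the snRNA starts peaked at 3.1% next to the start, while the snoRNA genes reached 3.68% upstream of it.

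Around genes without a coding start within 1 kb, peaks covered 2.54% of 1259 snRNA starts in shGFP and 0.794, 2.78 and 2.07% in shLuc, and 1 kb upstream 0.874% and 0.238, 0.953 and 0.794%. Between 1 and 3 kb upstream the coverage of snRNA genes reached 2.07% in shGFP and 1.11, 1.99 and 1.59% in shLuc, below the value at the start except in shLuc replicate 1. Each value reached upstream is the highest of positions 100 bp apart. It is set against 1 position at the start, which favours the upstream side. Of 1357 snoRNA starts, 1.55% were covered in shGFP and 0.737, 1.69 and 0.958% in shLuc. Between 1 and 3 kb upstream their coverage reached 3.98% in shGFP and 2.14, 3.68 and 3.17% in shLuc, above the value at the start in each library. The genes in these profiles have no coding start within 1 kb by selection, so coding promoters enter only farther out.

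For the 1833 microRNA starts without a coding start the values at the start were 3.16, 0.982, 2.24 and 2.18%, and 1 kb downstream 0.982, 0.273, 0.927 and 0.382%. The downstream side was lower than the start in each library. Between 1 and 3 kb upstream the coverage of microRNA genes reached 2.84, 1.09, 2.89 and 2.24%, above the start in the 3 shLuc libraries and below it in shGFP. These are again the highest upstream values, and the gaps in shLuc replicates 1 and 3 were small. At 1 kb upstream the coverage was 2.4, 0.709, 1.75 and 1.42%, below the start in each library. Members near the edge of the window were Mir193b (988 bp), Snora52 (989 bp) and Mir7647 (996 bp) inside it, and Gm23592 (1007 bp), Gm19658 (1009 bp) and Gm24401 (1011 bp) outside it.

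Repeated words changed the share found in all 4 libraries without a coding start little at small RNA genes and more over all autosomal regions. Of the 69 such regions 16 had at least 50% repeated words, with a mean of 23.1%, against 40.4% over all 5696 autosomal regions of that kind. Without the regions of at least 50% repeated words the share at small RNA genes went from 22.7% to 20.1% of 264, inside its interval of 18.3 to 27.7%. Over all autosomal regions without a coding start it went from 15.2% to 10.3%. With a coding start the shares without these regions were 60.7% at small RNA genes and 61.5% over all autosomal regions.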

How the data were processed

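ATAC-seq libraries of E14 ESCs with a shGFP (1) or shLuc (3) hairpin were analysed. The submitters' processing notes name bcl2fastq, Bowtie2, MACS2 and mm10, with no versions. In the study's methods reads were aligned to mm10 with the best placement kept, equal placements were drawn at random and only concordant pairs were used. The authors deposited 1 list of peak positions per library (chromosome, start, end) that holds no counts or other score. Chromosomes X and Y were left out except in an alternative.

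Union regions, distances and widths were computed in Python 3.11.15 (numpy 2.4.6, pandas 2.3.3, scipy 1.17.1). Printed positions count from 1. A region was found in a library when a peak shared at least 1 base with it. Families are the RefSeq names of same-strand entries covering at least 50% of a gene. Repeated words are words of 50 bases that occur elsewhere in GRCm38.p6 on either strand. Soft-masked bases were taken from the same genome. Shares have Wilson 95% intervals. The merging and the word count were tested on simulated data and gave all 10 and all 5 known values. No test between groups was made.

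Named genes were all microRNA loci found in all 4 libraries without a coding start, the 10 widest with one, the widest of each other type (up to 5 without and 3 with a coding start), genes of fixed lists and the 3 regions on each side of the 1 kb edge. Members of a fixed list with no region and near-copies are given as counts. The families and motif groups, and the genes they name outside that rule, were chosen after their values were seen. The members and lists were chosen with earlier results of these data known. Alternatives changed the start window, the coding window, the merging, the definition of found, the length of the lists, the chromosomes and the repeated sequence, and left out each shLuc library. Some start sequences are not reported here.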

Additional observations from a re-analysis of the deposited data

How the results depend on the processing

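In 65 of 78 comparisons of 6 results with 13 alternatives the value stayed within 1.5 times a count, within its interval or within 1 SD. Requiring peaks to cover 50% of a region lowered the share found in all 4 libraries to 14.5% without and 46.2% with a coding start. The same shares over all autosomal regions were not computed. With all lists reduced to their widest peaks, as many as shLuc replicate 1 has, the share found in all 4 was 53.0% with a coding start (all autosomal regions 50.6%) and 22.7% without (18.6%), and peaks at small RNA starts were 1.65% in shGFP and 1.58% on average in shLuc, so that shGFP lay above the shLuc mean and not below it. A window of 500 bp gave 0.819% and 0.96%, and a window of 2 kb gave 1.67% and 1.89%. Without regions of 50% soft-masked bases the shGFP share was 1.31%. Leaving out each shLuc library in turn moved the share found in every remaining library from 26.0 to 47.8% without a coding start and from 63.0 to 74.6% with one. The highest values were without shLuc replicate 1, where all autosomal regions gave 40.5% and 77.9%. All autosomal regions gave 18.2% and 64.2% without replicate 2, and 17.8% and 65.6% without replicate 3. The microRNA genes found in every library then ranged from 134 to 188, the regions from 512 to 545 and the shLuc mean from 1.16 to 1.37%. The depth of the libraries is unknown, so a missing peak is no measure of closed chromatin. No paired analysis was possible because there was 1 shGFP library and no result comes from a test.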
